A study of Mus musculus with 2 samples.

Results

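The cells described here are monocytes that lack C1q transcripts, recovered from the brains of mice at disease onset in a model of Krabbe disease. They were selected by measured values, as barcodes with at least 2 summed UMIs (unique molecular identifiers, each counting 1 captured transcript) of Csf1r, F13a1 and Ms4a6c. They also held fewer than 3 UMIs of C1qa, C1qb and C1qc, fewer than 2 of the B cell genes Cd79a and Cd79b, and 0 of the T cell genes Cd3d, Cd3e and Cd3g. The neutrophil genes Camp, Ngp and Ltf had to stay below 1% of a cell's UMIs, and S100a8 and S100a9 below 3%. This rule found 67 of the 2478 cells that had at most 15% mitochondrial UMIs, with 31 of 1271 WT cells and 36 of 1207 twi cells.

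The study profiled CD45+ leukocytes sorted from brain at p21 by droplet single-cell RNA sequencing. Twi mice (galc-/-) lack galactosylceramidase, the lysosomal enzyme that degrades the myelin lipid galactosylceramide and its toxic derivative psychosine. The controls were WT (galc+/+) littermates, and both genotypes were on the C57Bl/6 background, given as C57BL/6J in the study's methods. Each genotype was 1 library made from 2 to 3 pooled animals. The animals cannot be told apart, so no value below has a replicate error, none was tested, and a difference compares 2 libraries, not 2 genotypes. Intervals are exact 95% intervals that cover counting error only.

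Monocytes arise in bone marrow from progenitors that pass through a granule-protein stage, and leave as Ly6C-high classical cells that depend on the chemokine receptor Ccr2. Part of these convert into Ly6C-low cells, which depend on the nuclear receptor Nr4a1 and patrol the lumen of small vessels. Classical monocytes that enter inflamed tissue can take up antigen, raise MHC class II and respond to interferons, whereas resident microglia and border macrophages carry C1q.

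The WT library held 3749714 UMIs in 1278 barcodes and the twi library 4807539 UMIs in 1220 barcodes, of which 7 and 13 exceeded the mitochondrial limit. The 31 WT members held 247079 UMIs, between 1615 and 29280 per cell with a median of 6136. The 36 twi members held 199800 UMIs, between 1717 and 14714 per cell with a median of 5184. No cell barcode was shared between the members of both libraries. Csf1r, F13a1 and Ms4a6c together had a median of 11 UMIs per member in each library. At the edge of the rule, 4 WT and 4 twi members had exactly 2 such UMIs, and 12 WT and 8 twi cells that met every other limit had 1. C1q transcripts separated the cells by a gap: 2 members per library had 1 C1q UMI, none had 2, no excluded cell had 3 to 5, and 16 WT and 10 twi cells had more. These C1q-carrying cells are called C1q cells below.

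Members made up 2.44% of WT cells (1.66 to 3.44) and 2.98% of twi cells (2.1 to 4.11), a ratio of 1.22 (0.735 to 2.04). The share of a sorted pool depends on the other cells in it. B cells were 43.7% of the WT and 12.3% of the twi library, and neutrophils 15.9% and 4.06%. In a denominator meant to leave out both, members were 6.94% of 447 WT cells and 3.79% of 949 twi cells. The ratio turned to 0.547 (0.329 to 0.914). This denominator also left out cells beyond the B cells and neutrophils counted in these shares.

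The monocyte label did not hold equally for all members. Of the 5 markers fixed for monocytes, the 2 that the rule did not use were present in most cells, Ly6c2 in 24 WT and 27 twi members and Ccr2 in 20 and 24. Csf1r (28 and 29), Ms4a6c (27 and 31) and F13a1 (16 and 19) were chosen for and check nothing. In WT, however, 10 of the 31 members carried a progenitor or cell cycle profile, set as at least 3 UMIs of Kit, Mpo, Elane, Prtn3, Ctsg and Cd34 or at least 100 cell cycle list UMIs per 10000. Only 2 twi members did. These were deep cells, holding 59.2% of all WT member UMIs against 14.6% in twi. Mpo, the myeloperoxidase of azurophilic granules, had 278 UMIs in 5 WT cells, of which 1 cell held 147 and the next 81 and 45, and 2 UMIs in twi. The granule proteases followed the same pattern, with 145 against 6 UMIs of Prtn3, 110 against 2 of Ctsg and 66 against 1 of Elane. Cpa3, a protease of mast cells and their precursors, had 69 of its 70 WT UMIs in 1 cell and none in twi.

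Because these cells weigh so heavily in the WT sum, gene lists below are compared over all members and over the 21 WT and 34 twi cells without such a profile, called noncycling monocytes. Ratios of single genes are for noncycling monocytes unless all members are named, and ratios over all members can differ from them in size and direction. This second set was formed after the cells had been seen. It held 100819 WT and 170550 twi UMIs.

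Defining markers of brain macrophages were at or near 0 among the members, while neutrophil and erythroid transcripts were in nearly every WT member. Of the microglial markers, Tmem119 had 0 WT and 5 twi UMIs, and Sall1, Sparc, Gpr34 and Fcrls had 0 in both libraries. Of 7 border macrophage markers, Mrc1 had 1 UMI in each library and Pf4, Lyve1, Cd163, Folr2 and Cbr2 had none. The neutrophil list summed to 1627 CPM (UMIs per 1000000 UMIs) in WT and 680.7 CPM in twi, led by S100a8 with 192 UMIs in 29 of 31 WT and 47 UMIs in 22 of 36 twi members. The erythroid list summed to 1348 and 680.7 CPM, and its leading gene Hbb-bs was in all 31 WT and in 31 of 36 twi members. B cells of the same libraries also held S100a8 (69.7% of WT and 33.6% of twi cells) and Hbb-bs (79.3% and 60.4%). Single cells carried other lineages: 1 WT cell held 9 Siglech UMIs, a plasmacytoid dendritic cell gene, and 1 twi cell held 45 UMIs of the cytotoxic granzyme Gzma. The part of neutrophil and erythroid transcripts in the comparisons was not tested, while medians without cells holding dendritic cell or lymphocyte transcripts are given below. Xist without a Y transcript was seen in 0 of 31 WT members, which allows a share of cells with such a UMI of up to 9.68% (3 of 31 cells), and in 12 of 36 twi members, so that the sex makeup differed between the pools as well as genotype and the 2 cannot be told apart. Galc itself had 1 UMI in WT and 0 in twi, too few to check the genotype.

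Ly6c2-high cells were the larger class in both libraries. A cell was called Ly6c2-high at 5 or more Ly6c2 UMIs per 10000 of its UMIs, a limit that describes a range and not a cell type. By it 19 of 31 WT members (61.3%, 42.2 to 78.2) and 23 of 36 twi members (63.9%, 46.2 to 79.2) were Ly6c2-high, a ratio of 1.04 (0.543 to 2.02). The interval spans both a smaller and a larger share in twi, so a difference was not detectable at this depth. Between 2.5 and 7.5 Ly6c2 UMIs per 10000 lay 5 WT and 7 twi cells, and 7 WT and 9 twi cells had no Ly6c2 UMI. Ly6c2-low cells were shallower, with medians of 3994 UMIs in WT and 2863 in twi against 6555 and 5326 in Ly6c2-high cells. Among noncycling monocytes 12 WT and 21 twi cells were Ly6c2-high, and 9 and 13 were Ly6c2-low. Progenitor and cycling cells fell on both sides of the limit in WT, 7 among the high and 3 among the low.

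**Figure D1:**
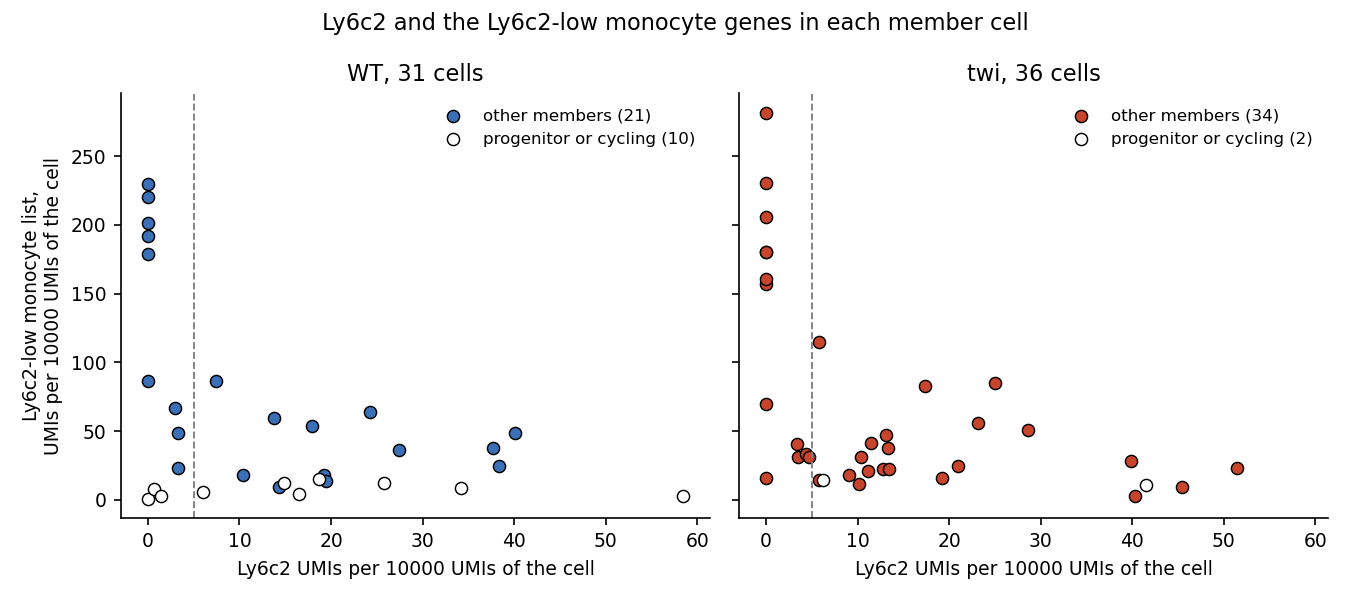
Each point is 1 member cell of the WT (left) or twi (right) library, with Ly6c2 UMIs per 10000 UMIs on the x axis and the summed Ly6c2-low monocyte list per 10000 UMIs on the y axis. Open points are the 10 WT and 2 twi progenitor or cycling cells, and the dashed line marks the limit of 5; the cells with the highest list levels lie at 0 Ly6c2 in both libraries, while the open points stay near 0 on the y axis.

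Ly6c2-low cells carried the genes of patrolling monocytes in both libraries. Of the 24 genes on that list, 15 had enough UMIs to be compared in WT noncycling monocytes (at least 10 over both classes) and all 15 were lower in Ly6c2-high cells, 9 of them past 2-fold. In twi all 19 compared were lower, 16 past 2-fold. Over all genes compared, 13.3% of 1610 in WT and 10.9% of 2438 in twi were at least 2-fold lower in Ly6c2-high cells, and 10.2% and 9.39% at least 2-fold higher. The median log2 ratio of the list, Ly6c2-high over Ly6c2-low with 0.5 UMIs added, was -1.27 in WT and -1.50 in twi, against -0.02 and -0.03 over all genes.

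Eno3, a glycolytic enolase, had 2 UMIs in WT Ly6c2-high cells against 23 in Ly6c2-low cells, a ratio of 0.042 (0.0048 to 0.169), and 6 against 33 in twi, a ratio of 0.070 (0.024 to 0.170). The G protein subunit gene Gngt2 had 24 against 67 UMIs in WT (0.172, 0.103 to 0.277) and 37 against 66 in twi (0.217, 0.141 to 0.329). Ace, encoding angiotensin-converting enzyme, had ratios of 0.147 (0.035 to 0.477) and 0.218 (0.085 to 0.523). These genes thus lay on the same side in both libraries with intervals below 1. The fractalkine receptor Cx3cr1 was at 0.431 (0.155 to 1.18) in WT and 0.387 (0.186 to 0.806) in twi, and Nr4a1 at 0.501 (0.267 to 0.943) and 0.414 (0.239 to 0.720). Cd300e, an activating receptor of patrolling monocytes, had no UMI in Ly6c2-high cells of either library and 6 WT and 13 twi UMIs in Ly6c2-low cells. Hes1, a Notch target, had 8 against 69 UMIs in WT, a ratio of 0.056 (0.023 to 0.116), and 19 against 30 in twi, a ratio of 0.245 (0.130 to 0.450). Pglyrp1, a peptidoglycan recognition protein, was at 0.213 (0.098 to 0.435) and 0.370 (0.241 to 0.570). The adhesion integrin Itgal was at 0.266 (0.110 to 0.609) and 0.451 (0.229 to 0.898), and the tetraspanin Cd9 at 0.032 (0.00076 to 0.208), from 1 against 15 UMIs, and 0.411 (0.246 to 0.688). Dusp2, Metrnl, Slc3a2 and Myo1g completed the 12 genes that led this direction in both libraries.

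Classical monocyte genes, by contrast, differed less evenly between the classes. Of 22 compared in each library without Ly6c2 itself, 16 in WT and 14 in twi were higher in Ly6c2-high cells, with medians of 0.61 and 0.26. Of the 21 compared in both libraries, 13 were higher in both. The WT median depended on the gate: over all members it was 1.11, and -0.51 where a member needed at least 4 UMIs of Csf1r, F13a1 and Ms4a6c. Lyz2, the macrophage lysozyme, was higher by a ratio of 1.42 (1.32 to 1.52) in WT and 1.48 (1.39 to 1.57) in twi, and the microsomal glutathione transferase Mgst1 by 3.21 (1.64 to 7.0) and 2.68 (1.61 to 4.76). Ccr2, which draws monocytes out of the marrow and into tissue, had 69 against 4 UMIs in WT, a ratio of 8.27 (3.09 to 31.2), but 90 against 24 in twi, a ratio of 1.45 (0.916 to 2.38). Fn1 (fibronectin) was at 8.87 (3.32 to 33.4) in WT and 0.942 (0.570 to 1.6) in twi, and the chitinase-like secreted lectin Chil3 at 3.18 (2.02 to 5.23) and 0.995 (0.839 to 1.18). For all 3 genes the twi Ly6c2-low cells held more than the WT Ly6c2-low cells: Ccr2 had 504.5 against 122.4 CPM, Fn1 483.5 against 122.4 CPM and Chil3 3931 against 673.4 CPM. The WT values rest on 4, 4 and 22 UMIs in 2 to 3 cells, and the difference between the libraries was not tested.

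**Figure D2:**
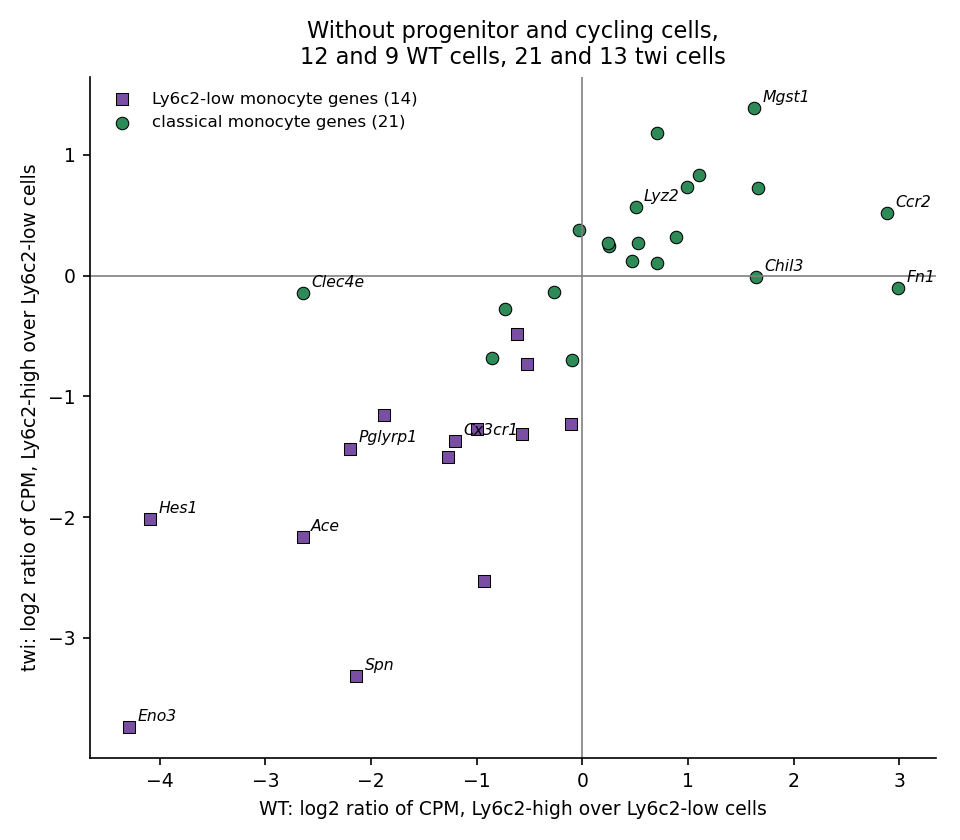
Log2 ratio of CPM, Ly6c2-high over Ly6c2-low noncycling monocytes, in WT (x axis) and twi (y axis), for each classical gene (circles, 21) and Ly6c2-low monocyte gene (squares, 14) compared in both libraries. All squares lie in the lower left quadrant, and Ccr2, Fn1 and Chil3 lie to the right but between -0.10 and 0.52 on the twi axis.

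Other genes higher in Ly6c2-high cells in both libraries included Naaa, a lysosomal acid amidase, with 15 against 1 UMIs in WT (7.19, 1.11 to 303) and 24 against 2 in twi (4.64, 1.15 to 40.5). Bst2 (tetherin), which holds budding virus at the membrane, had 25 against 3 UMIs in WT (3.99, 1.22 to 20.7) and 96 against 11 in twi (3.38, 1.80 to 6.99). Tgfbi, an extracellular matrix protein, was at 2.25 (1.12 to 5.0) and 2.06 (1.10 to 4.2), and the interferon-induced Ifi203 at 2.28 (0.757 to 9.20) and 2.03 (0.942 to 5.01). Gm10260, Atpif1, Mnda, Cndp2, Tprgl, Rhob and Clec4a2 made up the rest of the 12 named with Mgst1 by the same rule.

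In the twi over WT comparison most of the 17 gene lists with any UMI moved with the makeup of the gate. Over all members, 5236 genes with at least 10 UMIs had a median log2 ratio of -0.13, with 6.51% at least 2-fold higher and 13.1% at least 2-fold lower in twi. Among noncycling monocytes 3523 genes had a median of -0.05, with 7.52% and 7.47% past 2-fold in either direction. The cell cycle list was lower in twi in 19 of 19 genes over all members (median -1.6) and in 4 of 5 among noncycling monocytes (-0.48). Classical monocyte genes went from a median of 0.61 over 26 genes to -0.06, and Ly6c2-low monocyte genes from 0.87 over 20 genes to -0.11. The chemokine list went from 1.25 (7 genes) to 0.22 (6 genes), chemokine receptors from 0.51 (6) to 0.02 (6), Fc and complement receptors from 0.73 (9) to 0.13 (9), and phagocytosis, lysosome and lipid genes from 0.33 (26) to -0.02 (24). Glucocorticoid-responsive genes went from 0.42 (8) to -0.02 (7), immediate early and dissociation genes from 0.59 (17) to -0.03 (17), and cytokines and inflammatory enzymes from 0.06 (6) to -0.68 (4). In noncycling monocytes the MHC class II list had the highest median, at 1.63. The 3 lists of interferon responses and signalling lay at 0.29 to 0.31, little above chemokines at 0.22. Of these, the GTPase and IFNg list had only 4 genes, 2 higher and 2 lower. The order changed where cells with 5 or more dendritic cell or lymphocyte UMIs were also left out. Chemokines were then at 0.37, interferon-stimulated genes at 0.15, the GTPase and IFNg list at 0.26 and receptors and signalling at 0.35.

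**Figure D3:**
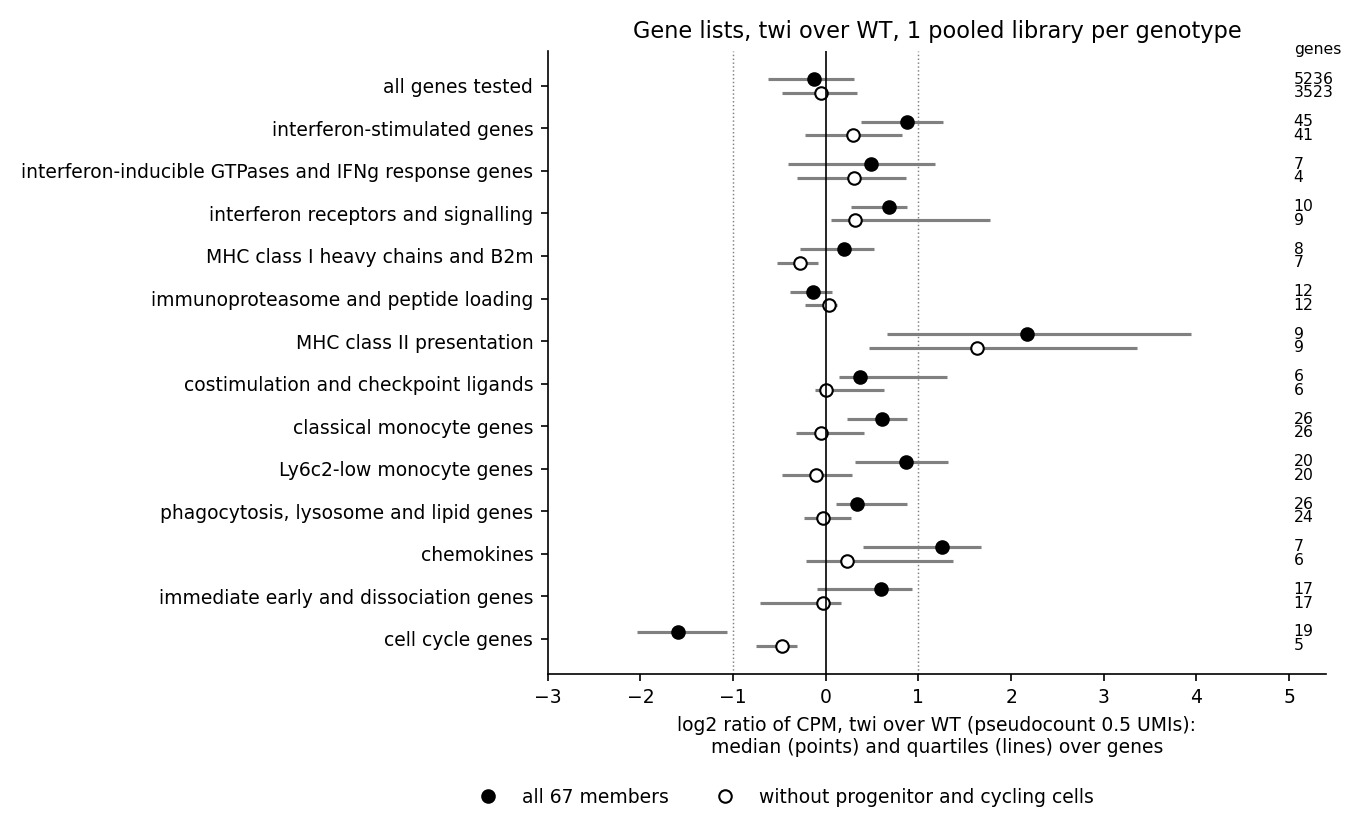
Median (points) and quartiles (lines) over genes of the log2 ratio of CPM, twi over WT, for 13 gene lists and all genes compared, over all 67 members (filled) and without progenitor and cycling cells (open). Most lists move toward 0 between the filled and the open point, and the MHC class II presentation median goes from 2.17 to 1.63, the highest of the open points.

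Interferon-stimulated genes were present at a high level in noncycling monocytes of both genotypes, and a small set of them was found almost solely in twi cells. The interferons signal through Ifnar1 and Ifnar2 (type I) or Ifngr1 and Ifngr2 (type II) to the kinases Jak1, Jak2 and Tyk2 and on to factors such as Stat2 and Irf9, which bind the interferon-stimulated response element. The response element, with the letters GAAANNGAAA on either strand, was searched in the 250 bases before each gene's start in the RefSeq promoters of GRCm38.p6. It was found in 19 of 47 interferon-stimulated genes that had a promoter there (40.4%), in 11 of 21 interferon-inducible GTPase and IFNg response genes (52.4%), in 3 of 9 MHC class I genes and in 936 of all 27025 promoters (3.46%). Irf7 and Ifitm3, described below, had no match in this window. The promoters of 3 genes detected mainly in twi cells follow, with the matches in capitals; a match is a description and not a site of binding.
Isg15 (chr4:156200819-156201068, minus strand, 3 overlapping matches): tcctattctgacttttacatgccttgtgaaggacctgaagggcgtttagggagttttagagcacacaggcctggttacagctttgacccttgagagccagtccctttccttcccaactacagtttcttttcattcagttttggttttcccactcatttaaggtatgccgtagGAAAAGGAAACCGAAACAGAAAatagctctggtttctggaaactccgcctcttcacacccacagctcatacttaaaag
Ifit1 (chr19:34640639-34640888, plus strand, 2 matches): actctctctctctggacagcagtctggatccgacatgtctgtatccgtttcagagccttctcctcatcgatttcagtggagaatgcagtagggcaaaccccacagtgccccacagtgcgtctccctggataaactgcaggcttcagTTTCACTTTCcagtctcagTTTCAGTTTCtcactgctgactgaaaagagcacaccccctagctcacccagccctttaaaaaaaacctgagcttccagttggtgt
Ifit3 (chr19:34583279-34583528, plus strand, 2 matches): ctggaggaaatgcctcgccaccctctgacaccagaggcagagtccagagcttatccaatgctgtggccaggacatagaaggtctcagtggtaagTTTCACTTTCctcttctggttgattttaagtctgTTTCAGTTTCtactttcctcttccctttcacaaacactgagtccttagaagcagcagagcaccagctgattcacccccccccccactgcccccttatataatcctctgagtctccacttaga
The match nearest to the start ended 56 bases before it in Isg15, 75 in Ifit1 and 112 in Ifit3.

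Isg15, a ubiquitin-like protein that is conjugated to targets after interferon, had 1 UMI in 1 WT cell and 33 UMIs in 12 twi cells. Among noncycling monocytes this was 9.92 CPM in WT and 193.5 CPM in twi, a ratio of 19.5 (3.27 to 794). A UMI of Isg15 was seen in 4.76% of WT cells (median depth 4746 UMIs) and 35.3% of twi cells (5164 UMIs), against 2.70% and 4.03% of B cells in the same libraries (2017 and 2202 UMIs). In C1q cells Isg15 was seen in 12.5% of 16 WT and 50% of 10 twi cells, at 292.4 and 287.3 CPM (0.983, 0.457 to 2.24), and in neutrophils in 13.9% and 12.2% of cells, at 104 and 359.2 CPM (3.45, 2.32 to 5.12). The level in twi monocytes was thus not above that in C1q cells or neutrophils of the same library, with overlapping intervals, and the ratio was above 1 in neutrophils too. With each cell thinned to 1000 UMIs the monocyte shares were 4.76% and 11.8%. The twi UMIs were spread over cells, with at most 5 in any 1, and 11 of the 12 cells were Ly6c2-high. Of all 34 noncycling twi monocytes 21 were Ly6c2-high. The twi Ly6c2-low members were also shallower, with a median of 2863 against 5326 UMIs.

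The antiviral RNA-binding protein Ifit1 had 0 UMIs in WT members and 8 in 5 twi cells, at least 3.30-fold higher in twi over all members and at least 1.58-fold among noncycling monocytes, when a WT count of 3 over the library is taken as the floor. Ifit3 had the same counts, and a floor of 3 of 21 cells puts the share of WT cells with a UMI at up to 14.3% for each, which does not limit the share that expresses the gene. Ifit2 had 0 against 7 UMIs. The dynamin-like GTPase Mx1 had 0 against 9 UMIs in 5 twi cells, at least 1.77-fold higher among noncycling monocytes. Usp18, which removes Isg15 from its targets and damps the type I receptor, had 1 against 15 UMIs in noncycling monocytes, a ratio of 8.87 (1.36 to 373) against 3.71 over all members. These counts were low but came from several cells each. With Isg15, Ifit1, Ifit3, Mx1 and Usp18 summed, a group chosen after their values were seen, 10 of 34 noncycling twi monocytes and 0 of 21 WT monocytes had 3 or more UMIs. Of these 10 cells 7 were Ly6c2-high, near the share of all noncycling twi monocytes, of which 21 of 34 were. Among the 10 WT progenitor or cycling cells, 1 also passed that count.

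Irf7, the factor that amplifies type I interferon production, had 14 UMIs in WT and 47 in twi noncycling monocytes, a ratio of 1.98 (1.07 to 3.90). Bst2 had 28 against 107 UMIs (2.26, 1.48 to 3.56), although 38 of the twi UMIs were in 1 cell, and without the 3 twi cells that held MHC class II chains (below) it was at 1.35 (0.849 to 2.21). Phf11b had 9 against 40 UMIs (2.63, 1.26 to 6.16), Ifi204, a DNA sensor, 22 against 61 (1.64, 0.992 to 2.80), and Zbp1, a sensor of left-handed nucleic acid, 10 against 32 (1.89, 0.907 to 4.31). Ifi35 (5 against 21 UMIs), Phf11d (1 against 9) and Tor3a (4 against 15) were also past 2-fold higher, each with an interval that included 1. Ifitm3, which blocks virus entry, had 580 against 1033 UMIs, 5753 against 6057 CPM and a ratio of 1.05 (0.95 to 1.17) against 1.84 (1.67 to 2.02) over all members. Its paralog Ifitm2 was at 1.33 (1.09 to 1.63) and Ifi27l2a at 1.28 (1.06 to 1.56). Ly6e, a membrane protein that limits coronavirus entry, was lower in twi at 0.799 (0.665 to 0.960), and Samhd1 was at 0.972 (0.702 to 1.36).

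Over all members 45 of the 61 listed genes could be compared. Of these 41 were higher in twi and 19 at least 2-fold, against 6.51% of all 5236 genes. The list median log2 ratio was 0.88. Among noncycling monocytes 28 of 41 were higher and 13 lower, 7 at least 2-fold higher and 1 at least 2-fold lower. Over all 3523 genes compared, 7.52% were at least 2-fold higher and 7.47% at least 2-fold lower. The list median was 0.29. After cells with 5 or more dendritic cell or lymphocyte UMIs had also been left out (20 WT and 30 twi cells), the median was 0.15. The summed list was 9305 CPM in WT and 16326 CPM in twi over all members, a ratio of 1.75 (1.66 to 1.85), and 15493 against 18153 CPM among noncycling monocytes, a ratio of 1.17 (1.10 to 1.25). Per cell, noncycling WT monocytes ranged from 84.4 to 242 list UMIs per 10000 with a median of 156, and twi monocytes from 30.8 to 440 with a median of 160. The lowest twi value came from 1 cell with 65 UMIs of the NK, T and B cell marker lists. The next twi cell was at 84.9. The ranges overlapped, with 2 twi cells above 400. The ratio of the summed list was close in both classes, 1.18 (1.09 to 1.27) in Ly6c2-high cells and 1.15 (1.03 to 1.29) in Ly6c2-low cells. Within each library the list also differed little between classes, with a summed ratio of Ly6c2-high over Ly6c2-low of 1.05 (0.942 to 1.17) in WT and 1.07 (0.991 to 1.16) in twi. The median over genes was 0.14 in WT and 0.30 in twi, but the WT median was 0.52 over all members and -0.52 with the stricter gate of 4 UMIs.

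Receptor and signalling genes were mostly at low counts. The receptor genes Ifngr1 (0.911, 0.653 to 1.28) and Ifnar2 (1.14, 0.593 to 2.29) lay near 1 in noncycling monocytes, while Ifnar1 had 2 against 14 UMIs (4.14, 0.95 to 37.5). The kinase Jak1 had 3 against 20 UMIs, a ratio of 3.94 (1.17 to 20.7), and Irf9 22 against 23, a ratio of 0.618 (0.329 to 1.16). The list median was 0.68 over 10 genes for all members and 0.31 over 9 genes among noncycling monocytes. Interferon-inducible GTPases and IFNg response genes were sparse, with a median of 0.49 over 7 genes and 0.31 over 4 of the 32 listed. Of these Ifi47 had 6 against 21 UMIs (2.07, 0.808 to 6.27) and Irf8, a lineage factor of monocytes and dendritic cells, 26 against 29 (0.659, 0.375 to 1.17). None of the 8 interferon ligand genes, Ifnb1 and Ifng among them, had a UMI in any member.

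The twi over WT ratio of the interferon-stimulated list in noncycling monocytes lay below that in neutrophils, and below that in C1q cells only in part of the comparisons. Progenitor and cycling cells were left out of the monocytes alone. In C1q cells the list was 6167 CPM in WT and 10945 CPM in twi (1.77, 1.53 to 2.06), in neutrophils 4107 and 8181 CPM (1.99, 1.85 to 2.14), and in B cells 5092 and 5269 CPM (1.03, 0.984 to 1.09). The monocyte ratio divided by that of C1q cells was 0.660 (0.564 to 0.773), by that of neutrophils 0.588 (0.536 to 0.646) and by that of B cells 1.13 (1.05 to 1.23). The first of these was 0.939 (0.698 to 1.26) with cells thinned to 1000 UMIs. Over all members the 3 values were 0.989 (0.847 to 1.15), 0.881 (0.806 to 0.963) and 1.70 (1.58 to 1.82). Noncycling monocytes of both libraries had the highest list level of these classes.

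**Figure D4:**
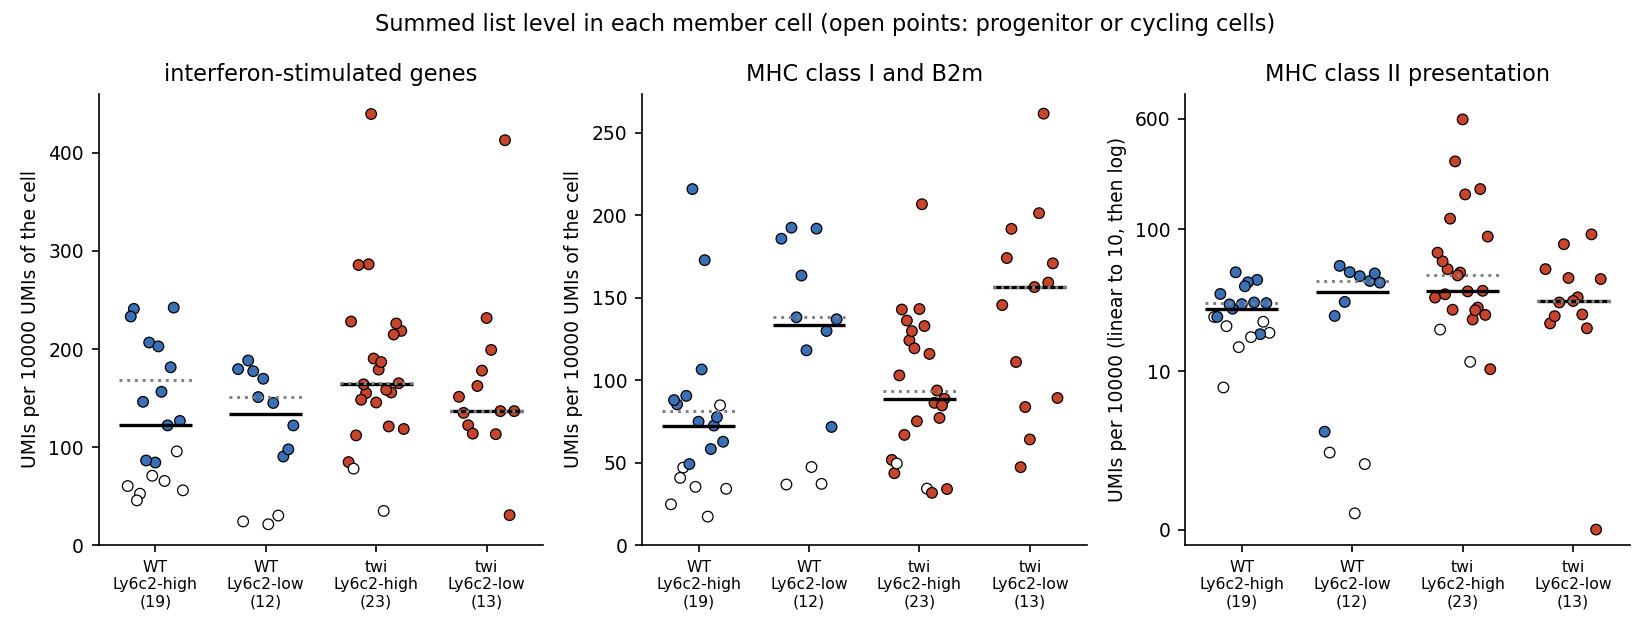
Summed UMIs per 10000 UMIs of each member cell for the interferon-stimulated, MHC class I and MHC class II lists, by library and Ly6c2 class. Solid lines are medians of all members, dotted lines medians without the progenitor and cycling cells (open points); open points lie low in the first 2 panels, and the cells above 100 in the class II panel are all twi Ly6c2-high cells.

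The direction of the MHC class I list between the libraries depended on which cells were counted and how they were weighed. The class I heavy chains pair with B2m to present peptides from the cytosol to CD8+ T cells. Over all members 5 of 8 genes compared were higher and 3 lower, with a median of 0.19, and among noncycling monocytes 1 of 7 was higher and 6 lower, with a median of -0.28. H2-D1 had 361 UMIs in WT and 504 in twi noncycling monocytes, 3581 against 2955 CPM, a ratio of 0.825 (0.720 to 0.947). H2-K1 had 124 against 148 UMIs, a ratio of 0.706 (0.552 to 0.903). Both thus lay below 1 by more than counting error, while B2m was at 0.981 (0.883 to 1.09). Over all members the ratios had been 1.24 for H2-D1, 0.863 for H2-K1 and 1.4 for B2m. H2 genes are close paralogs, and reads shared between them could be split, so values of single genes such as H2-Q6 and H2-Q7 are uncertain.

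Over all members the summed class I list was 7022 CPM in WT and 8994 CPM in twi, a ratio of 1.28 (1.20 to 1.37), and the direction turned without progenitor and cycling cells. It was then 10940 CPM in WT and 9815 CPM in twi noncycling monocytes, a ratio of 0.897 (0.831 to 0.969), against 5263 and 15870 CPM in C1q cells (3.02, 2.59 to 3.52). The monocyte ratio was 0.298 times that of C1q cells (0.251 to 0.352). H2-D1 in C1q cells rested on 32 WT and 269 twi UMIs. Thinned to 1000 UMIs per cell, the monocyte ratio was 0.980 (0.836 to 1.15) and that of C1q cells 2.88 (2.22 to 3.76). Within each library class I was lower in Ly6c2-high than in Ly6c2-low noncycling monocytes, with a summed ratio of 0.678 (0.60 to 0.766) in WT and 0.741 (0.669 to 0.821) in twi. H2-D1 was at 0.582 (0.471 to 0.721) in WT and 0.690 (0.574 to 0.833) in twi, and B2m at 0.686 (0.579 to 0.814) and 0.765 (0.667 to 0.879). The median per cell was 81.6 list UMIs per 10000 in WT Ly6c2-high and 138 in WT Ly6c2-low cells, and 93.8 and 157 in twi, with overlapping ranges. Over both classes it was 106.6 in WT and 113.5 in twi, so with each cell counted once the twi median was the higher, against the ratio of the summed UMIs.

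Genes that feed class I, the immunoproteasome and peptide loading list, had a median of -0.14 over 12 genes for all members and 0.04 among noncycling monocytes, where 7 were higher and 5 lower and none passed 2-fold. The catalytic subunit Psmb8 had 41 against 72 UMIs (1.04, 0.698 to 1.56), Psmb9 12 against 22 (1.08, 0.514 to 2.40) and the transporter Tap1 6 against 16 (1.58, 0.586 to 4.92). Costimulation and checkpoint ligands had a median of 0.37 over 6 genes for all members and 0.00 over 6 among noncycling monocytes, and Cd86, a ligand of Cd28, had 7 against 12 UMIs (1.01, 0.368 to 3.04).

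MHC class II was higher in twi, with the class II chains almost solely in 3 cells. The class II chains H2-Aa, H2-Ab1 and H2-Eb1 present peptides to CD4+ T cells, with the invariant chain Cd74 as chaperone. Their promoters are known for a Y box. Its letters ATTGG, or CCAAT on the other strand, were searched in the same window and were found in 9 of 11 class II list genes and in 9 of 9 class I list genes that had a promoter, but also in 37.5% of all promoters. The promoters of the class II chain genes H2-Aa and H2-Eb1, both higher in twi, are shown here with the matches in capitals.
H2-Aa (chr17:34287824-34288073, minus strand, 1 match): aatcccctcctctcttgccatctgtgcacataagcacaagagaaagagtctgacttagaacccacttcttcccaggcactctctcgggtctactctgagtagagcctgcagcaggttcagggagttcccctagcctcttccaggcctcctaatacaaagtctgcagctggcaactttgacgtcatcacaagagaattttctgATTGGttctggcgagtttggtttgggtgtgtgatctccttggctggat
H2-Eb1 (chr17:34305617-34305866, plus strand, 2 matches): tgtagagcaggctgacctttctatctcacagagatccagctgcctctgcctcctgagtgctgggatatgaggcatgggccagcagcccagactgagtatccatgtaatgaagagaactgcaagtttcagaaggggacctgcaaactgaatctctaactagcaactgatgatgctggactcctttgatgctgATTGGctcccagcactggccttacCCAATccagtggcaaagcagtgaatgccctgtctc
The match nearest to the start ended 43 bases before it in H2-Aa and 30 in H2-Eb1.

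H2-Aa had 0 UMIs in WT and 59 in 3 twi cells, which held 35, 15 and 9. With a floor of 3 WT counts it was at least 24.3-fold higher in twi over all members and at least 11.6-fold among noncycling monocytes. H2-Ab1 had 4 UMIs in 3 WT cells and 64 in 6 twi cells, of which 1 held 45, and H2-Eb1 had 3 against 43 UMIs, of which 1 cell held 35. Together 3 twi cells held 163 of the 166 twi UMIs of these 3 genes. All 3 were Ly6c2-high, 1 also had 3 or more UMIs of Cd209a, a gene of monocyte-derived and conventional dendritic cells, and 1 had Flt3. Of the WT members 1 cell, with a progenitor or cell cycle profile, also had 3 UMIs of these genes. A difference between 3 of 36 and 1 of 31 cells was not detectable with this number of cells.

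Cd74 was higher in twi through the same cells and 2 more. It had 28 UMIs in 19 WT members and 340 in 21 twi members, a ratio of 15, and 19 against 339 in noncycling monocytes, a ratio of 10.5 (6.65 to 17.7). The 3 class II cells held 238 of the twi UMIs. Without them 101 twi UMIs in 31 cells remained, 655.2 against 188.5 CPM, a ratio of 3.48 (2.12 to 6.01). Of these 101, 71 lay in 2 further cells with 3 or more Cd209a UMIs, and in the remaining 29 twi cells Cd74 had 30 UMIs, 217.4 against 188.5 CPM, a ratio of 1.15 (0.628 to 2.17). Cells were left out here after their values had been seen. B cells held far more Cd74, with 10516 CPM in WT and 14570 CPM in twi. The share of noncycling monocytes with a Cd74 UMI was 57.1% in WT and 58.8% in twi. The part of free B cell RNA in these counts was not tested.

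The proteases and reductase that prepare class II peptides were expressed more broadly. Ctss (cathepsin S, which trims the invariant chain) had 226 against 498 UMIs in noncycling monocytes, a ratio of 1.30 (1.11 to 1.53), and the asparaginyl endopeptidase Lgmn 8 against 44, a ratio of 3.25 (1.51 to 8.0). Ifi30, the lysosomal thiol reductase, was lower in twi at 0.641 (0.470 to 0.874), from 83 against 90 UMIs. The peptide exchange subunit H2-DMa was at 1.58 (0.940 to 2.74), and Ciita, the class II transactivator, had no UMI in any member. Over all members 8 of 9 list genes compared were higher in twi and 6 at least 2-fold, with a median of 2.17. Among noncycling monocytes 8 of 9 were higher and 5 at least 2-fold, with a median of 1.63. Over all genes compared, 6.51% of 5236 were at least 2-fold higher over all members, and 7.52% of 3523 among noncycling monocytes. The summed list was at 2.84 (2.56 to 3.14) over all members. Among noncycling monocytes it was 3670 CPM in WT and 7112 CPM in twi (1.94, 1.72 to 2.18), and 4117 CPM in twi without the 5 class II and Cd209a cells (1.12, 0.982 to 1.28). Ctss and Lgmn were at 1.30 (1.10 to 1.53) and 3.11 (1.41 to 7.77) without them. Twi over WT, the summed list was at 2.43 (2.1 to 2.82) among Ly6c2-high cells and 1.01 (0.814 to 1.26) among Ly6c2-low cells, and the 3 class II cells decided much of the former, which was 1.38 (1.18 to 1.63) without them. Per cell the medians were 35.1 list UMIs per 10000 in WT and 36.8 in twi, and the twi range reached 592 against 55.3 in WT. Ly6c2-high over Ly6c2-low, the class II list was at 0.779 (0.628 to 0.967) in WT and 1.87 (1.61 to 2.18) in twi, where it was 1.06 (0.903 to 1.26) without the 3 class II cells. The WT median over genes was -0.52 in noncycling monocytes (4 genes) and 0.33 over all members, so its direction there turned with the progenitor and cycling cells.

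**Figure D5:**
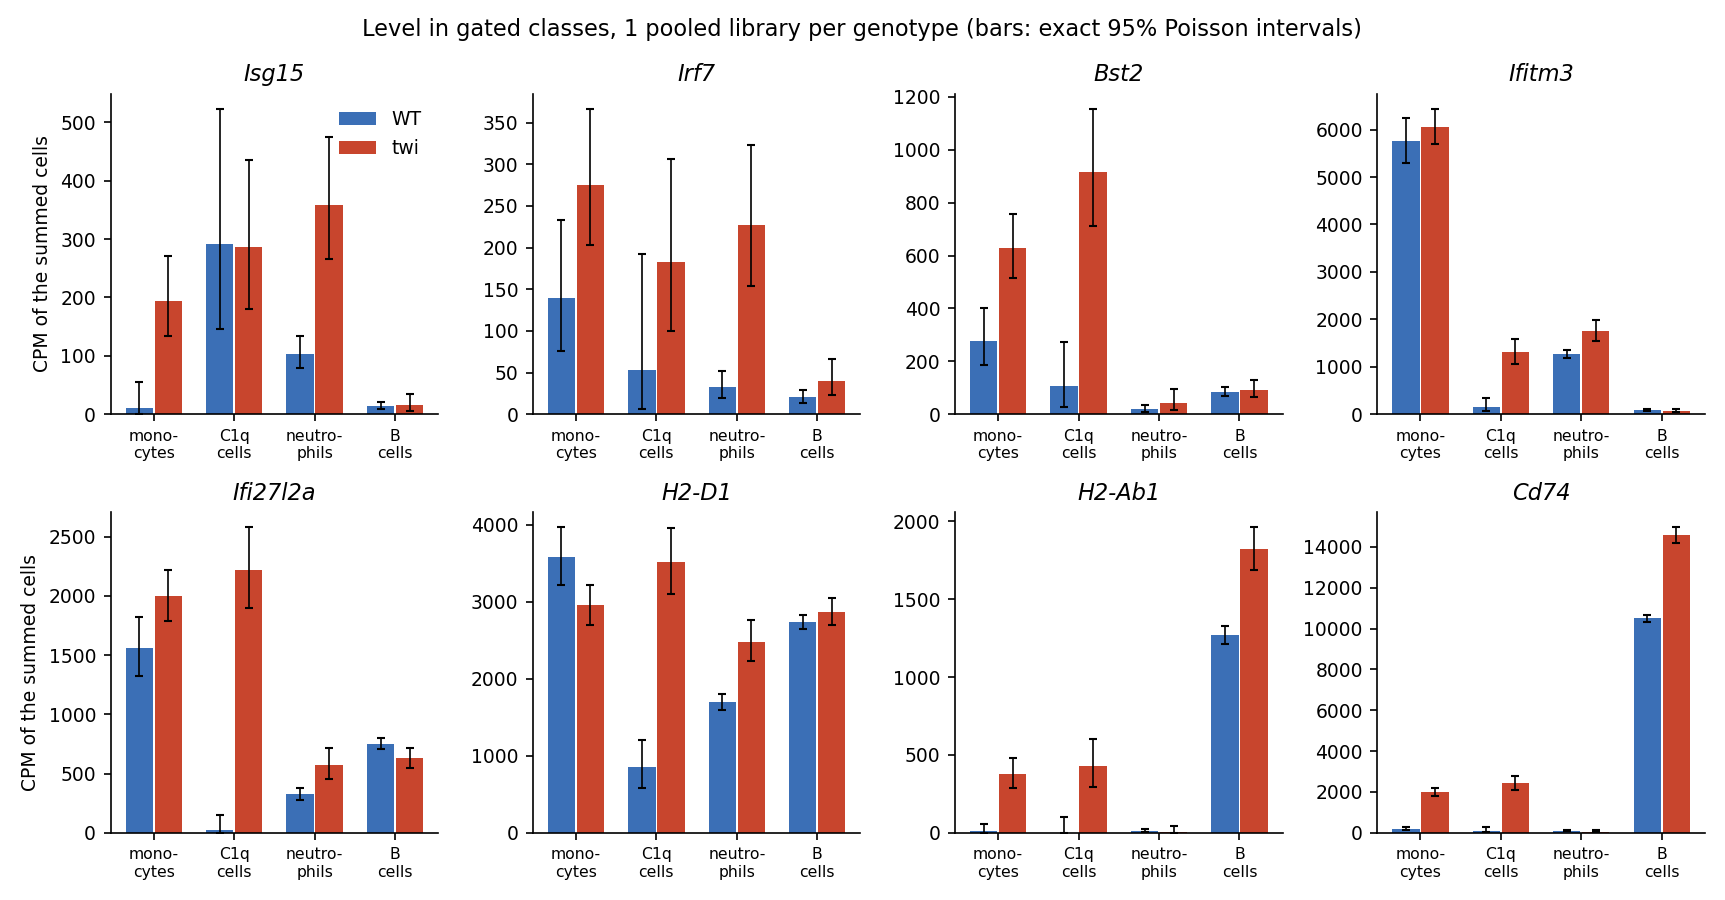
CPM of 8 interferon and antigen presentation genes in noncycling monocytes, C1q cells, neutrophils and B cells of the WT (blue) and twi (red) libraries, with exact 95% Poisson intervals as error bars. Isg15, Irf7, Bst2, H2-Ab1 and Cd74 are higher in twi monocytes, Ifitm3 is alike, H2-D1 is lower in twi monocytes but higher in twi C1q cells, and B cells have the highest H2-Ab1 and Cd74.

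Outside interferon and antigen presentation, Chil3 and Apoe led the genes higher in twi monocytes with reads in many cells. Chil3, a product of classical monocytes and alternatively activated macrophages, had 168 UMIs in 9 WT and 668 UMIs in 20 twi noncycling monocytes, 1666 against 3917 CPM, a ratio of 2.35 (1.98 to 2.80) against 4.78 over all members. It was higher both in Ly6c2-high cells (1.83, 1.51 to 2.21) and in Ly6c2-low cells (5.84, 3.74 to 9.54). Apoe, the lipid carrier that phagocytes raise when they take up myelin, had 131 against 603 UMIs, 1299 against 3536 CPM, a ratio of 2.72 (2.25 to 3.31) against 5.48 over all members. It had 211 of the twi UMIs in 1 cell. Its ratio was 4.24 (3.29 to 5.53) in Ly6c2-high cells and 0.831 (0.586 to 1.18) in Ly6c2-low cells.

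Spp1 (osteopontin) had no UMI in WT noncycling monocytes and 66 in 3 twi cells, all Ly6c2-high, of which 1 cell held 53. It was at least 13-fold higher in twi on the floor of 3 counts. Ly6c1, a close paralog of Ly6c2 whose reads could be shared with it, had 2 against 50 UMIs in 8 twi cells among noncycling monocytes. Over all members it had 30 UMIs in 7 WT cells, 24 of them in 1 cell, against 53 in 10 twi cells, a ratio of 2.18 (1.37 to 3.54). Ccl5, a chemokine for T cells, had 119 twi UMIs of which 102 lay in 1 cell. Cd209d had 34 noncycling twi UMIs against 1, of which 32 lay in 1 of 2 twi cells. The long noncoding RNA AW112010 had 2 against 34 UMIs, a ratio of 10.0 (2.58 to 86.3). Its twi UMIs were in 10 cells, of which 1 held 19. Fcgr1, the high-affinity IgG receptor, had 3 against 21 UMIs (4.14, 1.24 to 21.7), and the C5a receptor C5ar1 2 against 19 (5.62, 1.36 to 49.7).

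Lower in twi noncycling monocytes were Tppp3 with 82 against 38 UMIs (0.274, 0.181 to 0.407) and Serpinb10 with 34 against 15 (0.261, 0.132 to 0.492). Hes1, high in Ly6c2-low cells, had 77 against 49 UMIs (0.376, 0.257 to 0.545, but 0.787, 0.538 to 1.14, over all members), and the difference lay among Ly6c2-low cells, at 2112 against 630.7 CPM (0.299, 0.188 to 0.465). The actin crosslinker Flna was at 0.479 (0.295 to 0.770), Nadk, which makes NADP, at 0.50 (0.327 to 0.762), and Psap, the precursor of the saposins that assist lysosomal lipid breakdown, at 0.634 (0.559 to 0.719). Gm10260 and Gm10036 were at 0.230 and 0.344, and the globin Hba-a2, which has near-identical copies and marks erythroid RNA, at 0.331 (0.159 to 0.662). Ssh2, Adssl1 and Zfand5 were also lower. Over all members, the lowest in twi were instead the granule and cycling genes Cpa3, Mpo, Elane, Ctsg, Prtn3 and Ube2c.

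Of the classical monocyte genes with most UMIs, several lay near 1 in noncycling monocytes and others did not. Lyz2 had 4103 against 6740 UMIs (0.971, 0.934 to 1.01), Plac8 436 against 679 (0.921, 0.815 to 1.04) and Ccr2 73 against 114 (0.923, 0.682 to 1.26), although Ccr2 was at 0.723 (0.522 to 1.00) in Ly6c2-high and 4.12 (1.42 to 16.3) in Ly6c2-low cells. The calcium-binding S100a6 was at 0.717 (0.617 to 0.835), whereas Chil3 was at 2.35 as given above. Fn1 was at 0.599 (0.432 to 0.829), with 0.419 (0.291 to 0.601) in Ly6c2-high cells and 3.95 (1.35 to 15.7) in Ly6c2-low cells. Among genes that respond to cell handling, Fos was lower in twi at 0.530 (0.452 to 0.622), Dusp1 at 0.610 (0.474 to 0.785) and Jun higher at 1.32 (1.07 to 1.65), and Hspa1a was at 1.11 (0.974 to 1.26). Of the phagocyte adaptor and receptor genes, Tyrobp was at 0.981 (0.873 to 1.10) and Fcer1g at 1.09 (0.961 to 1.24). The chemokines Ccl6 (0.717, 0.587 to 0.877) and Ccl9 (0.818, 0.637 to 1.05) lay below 1 and Ccl3 at 1.02 (0.778 to 1.34).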

How the data were processed

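The authors deposited UMI counts per gene and barcode for each of 2 droplet libraries, with no normalization. Per the labels and the study's methods, CD45+ brain cells were enriched on Percoll, sorted, captured with 10x Genomics 3′ v2 chemistry and counted with Cell Ranger 2.1.1 (STAR, mm10), with an adaptive UMI threshold for cells. The labels and the methods describe different tissue digestions. The members, the 18 gene lists and the 18 marker lists were chosen with earlier results of these data known. Of them, Mx2, Ifi211, Cxcl11, H2-T10, Cebpd, Pclaf, Ighm, Igkc, Trac and Trbc2 were not matched by name.

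Counts were summed over the member cells of a library and divided by their total (CPM). Shares carry Clopper-Pearson intervals (a share of 0 instead the limit that 3 counts give), CPM exact Poisson intervals and ratios exact conditional intervals, all at 95% and covering counting error only. Medians of lists used log2 ratios with 0.5 UMIs added, over genes with at least 10 UMIs in both libraries together, without the genes of the rule; called means past 2-fold. No test, p-value or replicate error can be had from 1 library per genotype. Genes were named by a fixed rule: per list the 4 with most UMIs and the 3 with the largest and smallest ratios among those with at least 25 UMIs, of which the text gives a part. Across genes averaging 100 CPM or more, with at least 25 UMIs in the higher library, the 12 largest and smallest ratios were taken; other names were chosen after their values were seen. Noncycling monocytes, the limit of 100 cell cycle UMIs per 10000 the set with 5 or more dendritic cell or lymphocyte UMIs left out and the sets without class II or Cd209a cells were also chosen after the data were seen. Cells were thinned to 1000 UMIs where stated. No doublet caller was run. Some genes of the lists are not reported here. Promoters were RefSeq entries of GRCm38.p6, matched by symbol for 47 of 61 interferon-stimulated genes. Scripts were tested on simulated counts (Python 3.11.15, numpy 2.4.6, scipy 1.17.1, pandas 2.3.3).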

Additional observations from a re-analysis of the deposited data

Results flagged for a closer look

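Ifit1 went opposite ways in 2 cell classes: twi monocytes had 8 UMIs against 0 in WT monocytes, while C1q cells had 16 UMIs in 2 WT cells and 0 in twi. Ifit3 did likewise, with 8 twi monocyte UMIs against 0 in WT, and 10 UMIs in 3 WT C1q cells against 3 in 2 twi C1q cells. The difference between the classes was not tested, and all counts are small. In cells left out of the comparisons, 1 WT barcode above the mitochondrial limit (17.3% of its 2336 UMIs) met every other limit of the rule, with 2 summed UMIs of Csf1r, F13a1 and Ms4a6c and 2 UMIs of Ly6c2.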

How the results depend on the processing

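Of 368 values of 27 results under 20 planned and 2 added alternatives, 311 stayed within their interval or within 1.5 times the count, 56 moved and 1 reversed. No paired analysis was possible because each genotype had a single library, with no replicates to leave out or to pair. All values are for the whole gate, before progenitor and cycling cells are left out, unless the setting says so, and the cause of each move was not tested. A further added alternative, noncycling monocytes without class II and Cd209a cells, is given beside the class II values.

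The share of cells in the gate moved from 1.22 to 0.547 with B cells, neutrophils and some further cells out of the denominator. Genes at least 2-fold higher in twi (341) numbered 1772 with all genes of at least 1 UMI, 93 with cells thinned to 1000 UMIs and 187 without progenitor, cycling, dendritic cell and lymphocyte transcripts. Those lower (685) numbered 2647 and 109 under the first 2 settings, 263 without progenitor and cycling cells, 261 without all 4 kinds and 365 without lymphocyte transcripts.

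The interferon-stimulated median, twi over WT (0.88), was 0.29 without progenitor and cycling cells, 0.15 without all 4 kinds of transcript, 0.50 without lymphocyte transcripts, 0.43 with each cell weighing the same, 0.44 thinned and 1.19 in cells with a Y transcript and no Xist. The monocyte ratio of that list over the ratio in C1q cells (0.989) was 0.660 without progenitor and cycling cells and 0.211 on UMIs per cell. Over neutrophils (0.881) it was 0.588, 0.629 and, thinned, 0.799; over B cells (1.70) it was 1.13, 1.18 and 1.44. For the GTPase and IFNg list the value over C1q cells (1.11) was 0.237 on UMIs per cell, over neutrophils (0.482) it was 0.205 thinned, and over B cells (1.02) it was 1.32 without progenitor and cycling cells, 0.709 on UMIs per cell and 0.784 thinned.

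Medians of Ly6c2-high over Ly6c2-low cells moved most in WT. The classical list (1.11) reversed to -0.51 when at least 4 UMIs of Csf1r, F13a1 and Ms4a6c were required, and was 0.61 without progenitor and cycling cells, 2.28 with Ly6c2-high set at 2 UMIs, and 0.49 at 2 UMIs after thinning. In twi (0.14) it was 0.52 at 2 UMIs, 0.57 at 1 UMI, 0.46 at 10 per 10000, 0.48 with cells weighed the same and 0.54 thinned. The interferon-stimulated list in WT (0.52) was -0.52 with at least 4 rule UMIs, 0.20 without lymphocyte transcripts, 0.14 without progenitor and cycling cells, 0.88 at 2 UMIs, 0.81 at 1 UMI, 0.22 with cells weighed the same and -0.12 thinned, and in twi (0.05) it was -0.35 with the gate set at 1000 UMIs per cell. Class I in WT (-0.19) was -0.45 without dendritic cell transcripts, -0.43 in cells with a Y transcript, -0.36 without progenitor and cycling cells, -0.44 at 1 UMI and -0.55 thinned. Class II in WT (0.33) was -0.82 with at least 4 rule UMIs, -0.23 without lymphocyte transcripts, -0.52 without progenitor and cycling cells, -0.13 at 2 UMIs after thinning and -0.20 with cells weighed the same. The Ly6c2-low list in twi (-1.81) was -1.20 with the gate at 1000 UMIs per cell and -1.0 at 2 UMIs after thinning.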

Other observations

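Cytokine genes were sparse in noncycling monocytes. Osm, a cytokine of activated myeloid cells, had 14 WT and 5 twi UMIs (0.211, 0.060 to 0.620), and Il1b had 15 against 13, a ratio of 0.512 (0.224 to 1.15). Tgfb1, which restrains inflammation, was seen more broadly, with 43 against 84 UMIs and a ratio of 1.16 (0.790 to 1.71). Tnf had 3 against 4 UMIs. Ccrl2, a nonsignalling receptor for chemerin, had 16 against 10 UMIs (0.370, 0.150 to 0.866). Of genes that respond to glucocorticoids, Tsc22d3 was at 0.890 (0.667 to 1.19), Sgk1 at 2.56 (1.03 to 7.61) from 6 against 26 UMIs, and Ddit4 at 0.394 (0.173 to 0.865) from 18 against 12 UMIs.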
